A study of Rattus norvegicus with 20 samples.

Results

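Hdc, Vnn1, Aig1 and Nim1k are 4 rat genes whose liver mRNA was higher on fish oil and which are not enzymes of fatty acid oxidation. They were selected on their z scores, as genes higher on fish oil than on soybean oil, and were taken by symbol from the 14217 genes that could be named on the array. They have 5 of the 31039 probe sets that could be analysed, 1 for each of Hdc, Vnn1 and Nim1k and 2 for Aig1. A probe set is a group of short DNA probes that read 1 transcript. For Aig1 the brighter of the pair, by its mean on the 20 arrays, stands for the gene, and the other serves as a check. The rise on fish oil was the reason for choosing these genes, so their differences between the oils are described here and carry no test. Differences between the protein sources, and between rats of 1 diet, were not used in the choice and were tested.

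The study fed male Sprague-Dawley rats, obtained at 4 weeks of age, 1 of 4 diets for 21 days. The TF group received freeze-dried tofu and fish oil, the CF group casein and fish oil, the TS group tofu and soybean oil, and the CS group casein and soybean oil. The tofu diets also held a smaller amount of casein, which brought their protein to the common level. Every diet held 200 g/kg of protein and 150 g/kg of fat, and in the TF and CF diets 50 g/kg of the soybean fat gave way to fish oil, so the fish oil groups also ate soybean fat. Livers of 5 rats per group, those with food intake near the average of their group, were put on 20 arrays with 1 rat per array. Food had been withheld for a few hours before the livers were taken. The animals were not genetically modified.

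The 4 genes work in separate pathways. Hdc, histidine decarboxylase, makes histamine from the amino acid histidine and is best known from mast cells, basophils and the enterochromaffin-like cells of the stomach. Vnn1, vanin 1, is a pantetheinase that splits pantetheine, a breakdown product of coenzyme A, into pantothenate (vitamin B5) and cysteamine, and it is abundant in liver, where in mice it is known as a target of the fatty acid sensor PPAR alpha. Aig1, androgen induced 1, is a membrane enzyme that hydrolyses fatty acid esters of hydroxy fatty acids, a class of branched lipids. Nim1k is a serine/threonine protein kinase related to AMPK, the cell's energy sensor.

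Each value is a z score, a log-scale unit in which 0 lies near the middle of each array's signals. A z difference of 0.2 stands for a 1.41-fold difference in signal. The 4 genes had means over the 20 rats above those of 59.3% (Hdc), 85.4% (Vnn1), 75.2% (Aig1) and 71.8% (Nim1k) of all genes. Levels of different probe sets are not comparable as amounts of RNA, so each gene is set only against itself. The array medians lay between -0.102 and 0.0220, and no fold change is given where a group mean did not exceed the highest of them. The number of arrays limits the precision. No separate measure of background was used here.

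The upstream sequences of 3 of the 4 genes, Hdc, Aig1 and Nim1k, were in the RefSeq table for rat build GRCr8, which had no window for Vnn1. They are shown for description only. Each is the 250 bases before an annotated start, on the minus strand of the genome and written 5′ to 3′ along the gene. Capitals mark exact matches, on either strand, to the motifs searched: AGGTCA (the hexamer read by nuclear receptors), DR1 (that hexamer repeated after 1 base, so that each DR1 also counts as a hexamer), TATAAA (the TATA box), CCAAT (the CCAAT box), GGGCGG (the GC box), CACGTG (the E-box) and the cAMP response element TGACGTCA. Hdc is at chr3:134318705-134318954, Aig1 at chr1:10089084-10089333, and the outermost of 3 windows of Nim1k at chr2:53451249-53451498.
Hdc: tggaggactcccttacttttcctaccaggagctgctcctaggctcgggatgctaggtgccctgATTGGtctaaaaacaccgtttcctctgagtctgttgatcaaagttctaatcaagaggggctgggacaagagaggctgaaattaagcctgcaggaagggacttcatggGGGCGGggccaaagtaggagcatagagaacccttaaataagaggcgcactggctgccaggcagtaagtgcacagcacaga
Aig1: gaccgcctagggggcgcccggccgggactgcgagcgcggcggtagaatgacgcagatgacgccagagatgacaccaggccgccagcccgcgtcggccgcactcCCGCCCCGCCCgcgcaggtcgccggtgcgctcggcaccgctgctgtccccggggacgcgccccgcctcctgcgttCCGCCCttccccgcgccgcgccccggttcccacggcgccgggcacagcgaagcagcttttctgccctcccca
Nim1k: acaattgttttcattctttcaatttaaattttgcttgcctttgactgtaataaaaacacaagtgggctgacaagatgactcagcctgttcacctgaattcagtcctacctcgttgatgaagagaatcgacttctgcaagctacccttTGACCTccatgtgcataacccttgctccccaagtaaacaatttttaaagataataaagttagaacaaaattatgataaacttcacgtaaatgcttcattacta
The Hdc window held 1 CCAAT match, starting at base -187 on the opposite strand, and 1 GC box at base -80. The Aig1 window held 3 GC boxes on the opposite strand, starting at -147, -142 and -72, of which the first and second overlap. The outermost Nim1k window held 1 AGGTCA on the opposite strand at -103. Of the Nim1k windows not printed, window 2 held a CCAAT match on the opposite strand at -15. Window 3 held a TATA box at -213 and a CCAAT match on the opposite strand at -165. No window of the 3 genes had a DR1, an E-box or a cAMP response element, and Vnn1 could not be searched.

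The same letters were found widely. The hexamer AGGTCA was in 14.1% of the 33469 rat windows of this length, DR1 in 0.0508%, the TATA box in 12.9%, the CCAAT box in 34%, the GC box in 30.5%, the E-box in 5.59% and the cAMP response element in 1.59%. The printed windows differed in base composition. GC content was 52.4% in Hdc, 77.2% in Aig1 and 35.6% in the outermost window of Nim1k, against a median of 51.2% over all windows. The Nim1k windows not printed had 60.4% and 39.2%. The Aig1 window held 39 CpG dinucleotides, the Hdc window 4 and the Nim1k windows 3, 13 and 2. A match describes letters only.

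Hdc was above the array middle in every rat on fish oil and near it on soybean oil. In the TF rats the z scores were 1.04, 0.864, 1.02, 0.835 and 0.575, and in the CF rats they were 0.605, 1.13, 0.949, 1.37 and 0.903. In the TS rats they were -0.299, 0.0871, 0.0504, -0.00438 and 0.0750, and in the CS rats -0.0442, 0.232, -0.198, -0.207 and 0.318. Every rat on fish oil was above every rat on soybean oil, and on soybean oil the transcript sat at the middle of the array. The group means were 0.868 ± 0.188 in TF, 0.991 ± 0.283 in CF, -0.0182 ± 0.161 in TS and 0.0202 ± 0.244 in CS (SD, n = 5 each). Fish oil minus soybean oil came to 0.93 across both proteins, 0.89 on tofu and 0.97 on casein. The gap between the lowest fish oil rat and the highest soybean oil rat was 0.257. Because both soybean oil means lay at the array middle, only the z difference is given for Hdc.

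Vnn1 ranked 3 of all 14217 genes by its difference between the oils. Its z scores in the TF rats were 1.65, 1.80, 1.47, 1.47 and 1.45, and in the CF rats 1.40, 1.40, 1.64, 1.61 and 1.59. In the TS rats they were 0.951, 1.0, 0.850, 0.459 and 0.694, against 1.18, 0.832, 0.838, 0.819 and 0.848 in the CS rats. The oils did not overlap, and 4 of the 5 CS rats lay close together with rat CS-1 above them. The means were 1.57 ± 0.154 in TF, 1.53 ± 0.119 in CF, 0.791 ± 0.219 in TS and 0.903 ± 0.155 in CS (SD, n = 5 each). Fish oil minus soybean oil was 0.70 across both proteins, a 3.38-fold higher signal. It was 0.78 (3.86-fold) on tofu and 0.62 (2.95-fold) on casein.

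Aig1 ranked 7 and had the smallest spread between rats of a diet among the members. Its main probe set read 1.30, 1.28, 1.12, 0.990 and 0.980 in the TF rats, and 0.988, 1.06, 1.30, 1.27 and 1.09 in the CF rats. It read 0.461, 0.506, 0.329, 0.557 and 0.305 in the TS rats, against 0.778, 0.718, 0.634, 0.643 and 0.613 in the CS rats. The fish oil rats were all above the soybean oil rats, and the TF and CF rats covered the same range. The means were 1.13 ± 0.152 in TF, 1.14 ± 0.136 in CF, 0.432 ± 0.110 in TS and 0.677 ± 0.0687 in CS (SD, n = 5 each). Fish oil minus soybean oil was 0.58 across both proteins (2.75-fold), 0.70 on tofu (3.38-fold) and 0.46 on casein (2.24-fold).

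Nim1k ranked 11 and was the only member whose oils overlapped. Its z scores were 1.0, 1.26, 1.03, 0.961 and 1.36 in the TF rats, and 1.12, 0.803, 1.19, 0.509 and 0.879 in the CF rats. They were 0.814, 0.822, 0.515, 0.0515 and 0.326 in the TS rats, against 0.746, 0.431, 0.422, 0.389 and 0.433 in the CS rats. Of the 10 fish oil rats, 8 were above every soybean oil rat, and the exceptions were CF-2 and CF-6. The means were 1.12 ± 0.178 in TF, 0.900 ± 0.271 in CF, 0.506 ± 0.329 in TS and 0.484 ± 0.148 in CS (SD, n = 5 each). Fish oil minus soybean oil was 0.52 across both proteins (2.45-fold), 0.62 on tofu (2.92-fold) and 0.42 on casein (2.05-fold).

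**Figure D1:**
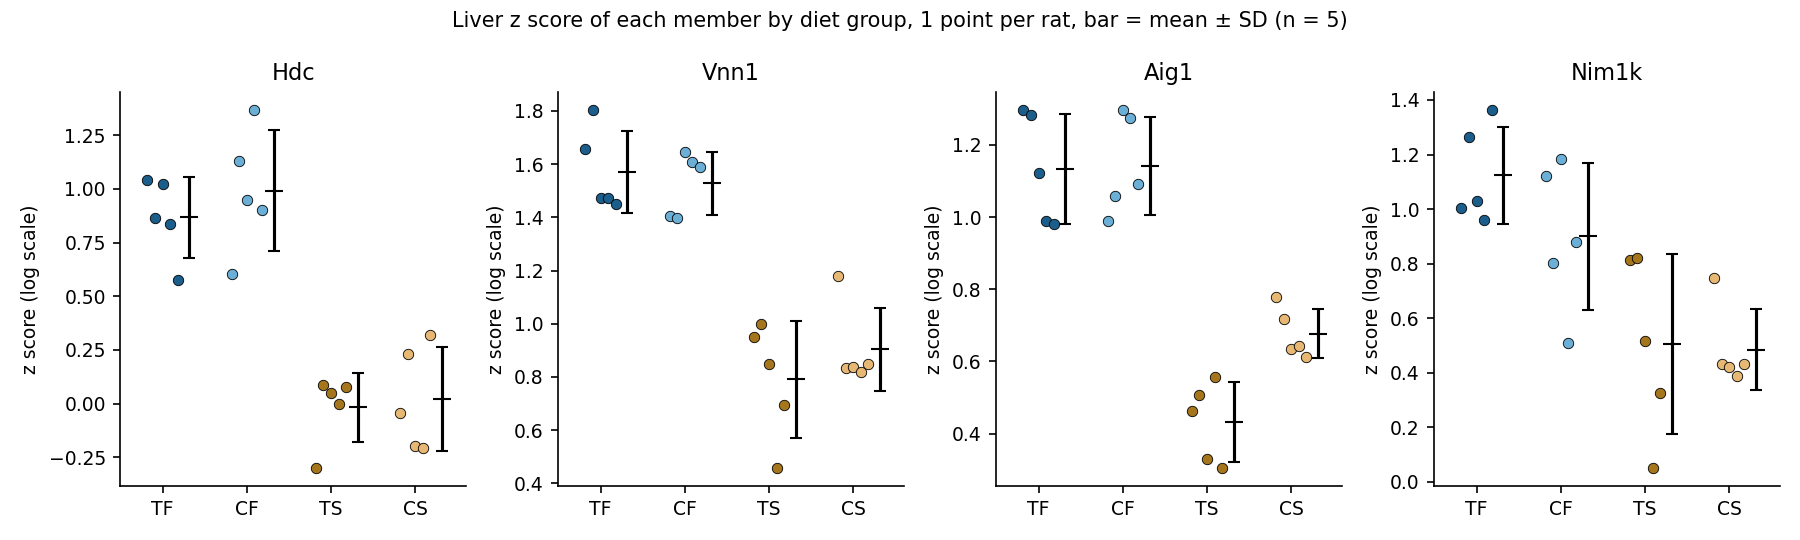
The plot shows the liver z score (log scale, a separate axis per gene) of Hdc, Vnn1, Aig1 and Nim1k in the TF, CF, TS and CS groups, with 1 point per rat and bars for the mean and SD of 5 rats. For Hdc, Vnn1 and Aig1 the 10 fish oil rats sit above all soybean oil rats, and for Nim1k 8 of 10 do.

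For 3 of the 4 genes all 10 fish oil rats were above all 10 soybean oil rats, while 0.134% of all genes (19 of 14217) had that order. Since the genes were chosen for this difference, the count only describes them. In Nim1k, as in the others, all 10 fish oil rats were above the mean of the soybean oil rats. The oil accounted for 83.6% of the variation between the 20 rats in Hdc, 83.8% in Vnn1, 81.5% in Aig1 and 55.6% in Nim1k. The SD between rats of 1 diet was 0.224 for Hdc, 0.166 for Vnn1, 0.121 for Aig1 and 0.243 for Nim1k, all above the median of 0.0953 over all genes. In whole liver, more RNA per cell and more cells that make it cannot be told apart.

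The other probe set of Aig1 did not show this pattern. It read low on every diet, with means of -0.387 ± 0.360 in TF, -0.452 ± 0.0965 in CF, -0.441 ± 0.135 in TS and -0.444 ± 0.241 in CS (SD, n = 5 each). Fish oil minus soybean oil was 0.023, and rats on the 2 oils covered one another's range. The mean of both probe sets gave an Aig1 difference of 0.30 in place of 0.58. Everything said here of Aig1 therefore rests on 1 of its 2 probe sets, and what part of the transcript each reads was not examined.

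**Figure D2:**
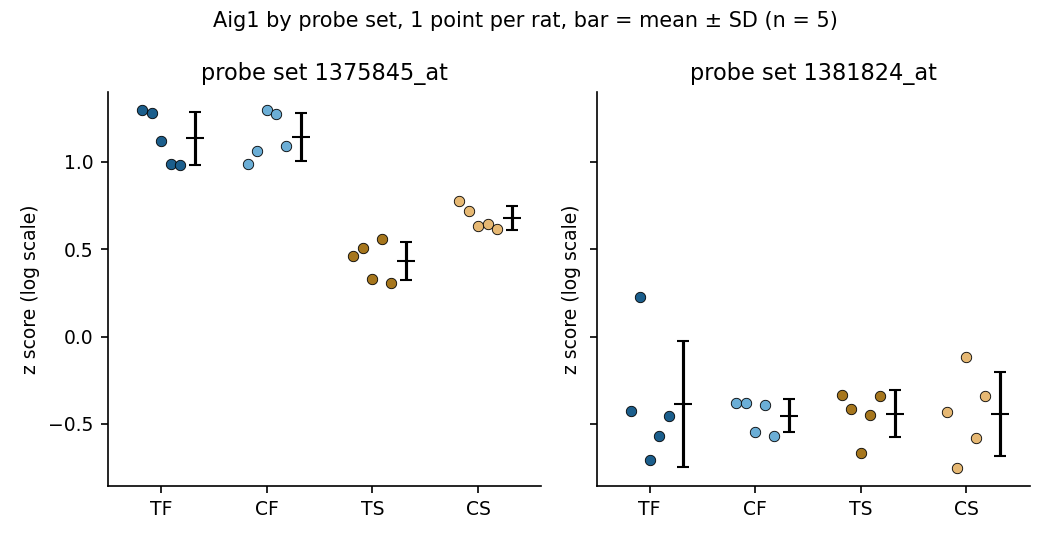
Both Aig1 probe sets are plotted on 1 axis of z scores (log scale) for the TF, CF, TS and CS groups, with 1 point per rat and bars for the mean and SD of 5 rats. The main probe set, on the left, separates the oils, and the group means of the other one lie between -0.452 and -0.387.

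The protein source moved none of the 4 genes past the threshold. Tofu minus casein was -0.081 (SE 0.094) for Hdc, -0.035 (SE 0.071) for Vnn1, -0.13 (SE 0.053) for Aig1 and 0.12 (SE 0.10) for Nim1k. The limma adjusted p over all probe sets was 0.829, 0.914, 0.409 and 0.735 in that order, with 5 rats per group. So 0 of 4 members were called, where 0.921% of all genes were. Before adjustment 1 member, Aig1, was under 0.05 in limma's fit, along with 11.5% of all genes. The 95% confidence intervals ran from -0.28 to 0.12 for Hdc, -0.18 to 0.11 for Vnn1, -0.24 to -0.015 for Aig1 and -0.090 to 0.34 for Nim1k, so each interval stayed within 0.34 of 0 on either side.

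The protein sources were also compared within each oil. For Aig1 all 5 TS rats were below all 5 CS rats, by the values given above, and 0.591% of all genes had that order. TS minus CS was -0.25 (SE 0.075), with an adjusted p of 0.371 in limma, so it was not called. TF minus CF was -0.0076 (SE 0.075, adjusted p = 0.995). For the other members TS minus CS was -0.038 for Hdc, -0.11 for Vnn1 and 0.021 for Nim1k, and TF minus CF was -0.12 for Hdc, 0.043 for Vnn1 and 0.22 for Nim1k. None of these was called, and all genes were called at 0.106% for TS against CS and 0.0985% for TF against CF.

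The question whether the protein source changed the size of the fish oil difference was put to the interaction term. The fish oil difference on tofu minus that on casein was -0.085 (SE 0.19) for Hdc, 0.16 (SE 0.14) for Vnn1, 0.24 (SE 0.11) for Aig1 and 0.20 (SE 0.20) for Nim1k. None was called in limma (adjusted p = 1.0 for all 4), and 0% of all genes were. Before adjustment 1 member, Aig1, was under 0.05, along with 359 genes in all (2.53%), and an ordinary linear model without moderation also called 0 genes. The intervals were wide. They ran from -0.48 to 0.31 for Hdc, -0.14 to 0.45 for Vnn1, 0.016 to 0.46 for Aig1 and -0.22 to 0.63 for Nim1k.

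**Figure D3:**
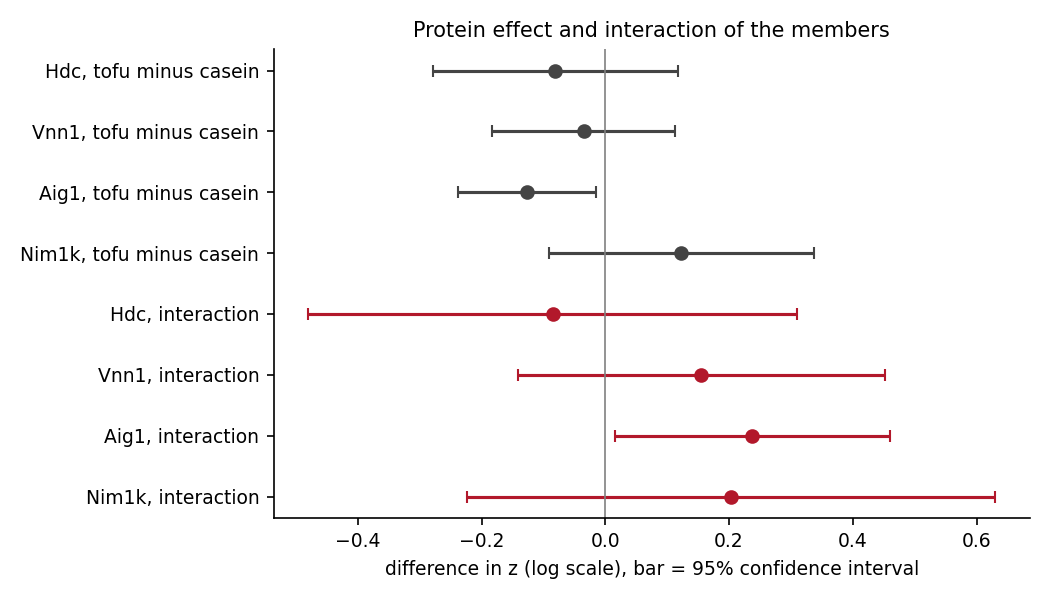
Points show the difference in z (log scale) for tofu minus casein (grey) and for the interaction (red) of Hdc, Vnn1, Aig1 and Nim1k, with bars for the 95% confidence interval. Both Aig1 intervals stay on 1 side of 0, at -0.13 and 0.24, the other 6 cross it, and no adjusted p passed 0.05.

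Within a diet the members differed from rat to rat, and the deviations from the diet means were compared for the 6 pairs of genes over the 20 rats. Vnn1 and Nim1k deviated in the same direction (Pearson r = 0.59, Spearman rho = 0.53), and so did Vnn1 and Aig1 (r = 0.49, rho = 0.60). Hdc and Nim1k deviated in opposite directions (r = -0.51, rho = -0.45). In a two-sided permutation test with 100000 resamples within diets, r gave p = 0.0178, 0.0409 and 0.0293 for these pairs in the order named, rho gave 0.0391, 0.0160 and 0.0448, and after adjustment over the 6 pairs all were 0.0819 for r and 0.0895 for rho. The pair of Hdc and Aig1 had r = 0.35 and rho = 0.34 (permutation p = 0.162 and 0.175). The pairs of Hdc with Vnn1 (r = 0.063, rho = 0.065, permutation p = 0.792 and 0.797) and of Aig1 with Nim1k (r = -0.027, rho = 0.023, permutation p = 0.916 and 0.932) were near 0. No pair passed 0.05 after adjustment.

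Single rats carried much of these values. TS-5 was lowest for both Vnn1 and Nim1k, at -0.332 and -0.454 from its diet mean, yet above its mean for Aig1, at 0.125. CF-6 was 0.377 above its mean for Hdc and at -0.391 from it for Nim1k. Without the 2 rats whose deviation in the first gene was farthest from the median, a choice made after the values were seen, r was 0.52 for Vnn1 and Nim1k (without CS-1 and TF-4), -0.34 for Hdc and Nim1k (without CF-1 and CF-6) and 0.34 for Vnn1 and Aig1 (without CS-1 and TF-4). The permutation p adjusted over the 6 pairs was 0.457 for each. When the rats left out were instead the 2 with the most extreme z score of the first gene, which differs between the diets, the same pairs gave 0.32, -0.26 and 0.81. The last passed the threshold (adjusted permutation p = 0.000780) only in that setting, without TS-5 and TS-7. Among the 16 rats left without the 4 arrays of low 5′ beta-actin described next, r was 0.64, -0.32 and 0.35 for the same 3 pairs, with adjusted permutation p of 0.308, 0.473 and 0.579.

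**Figure D4:**
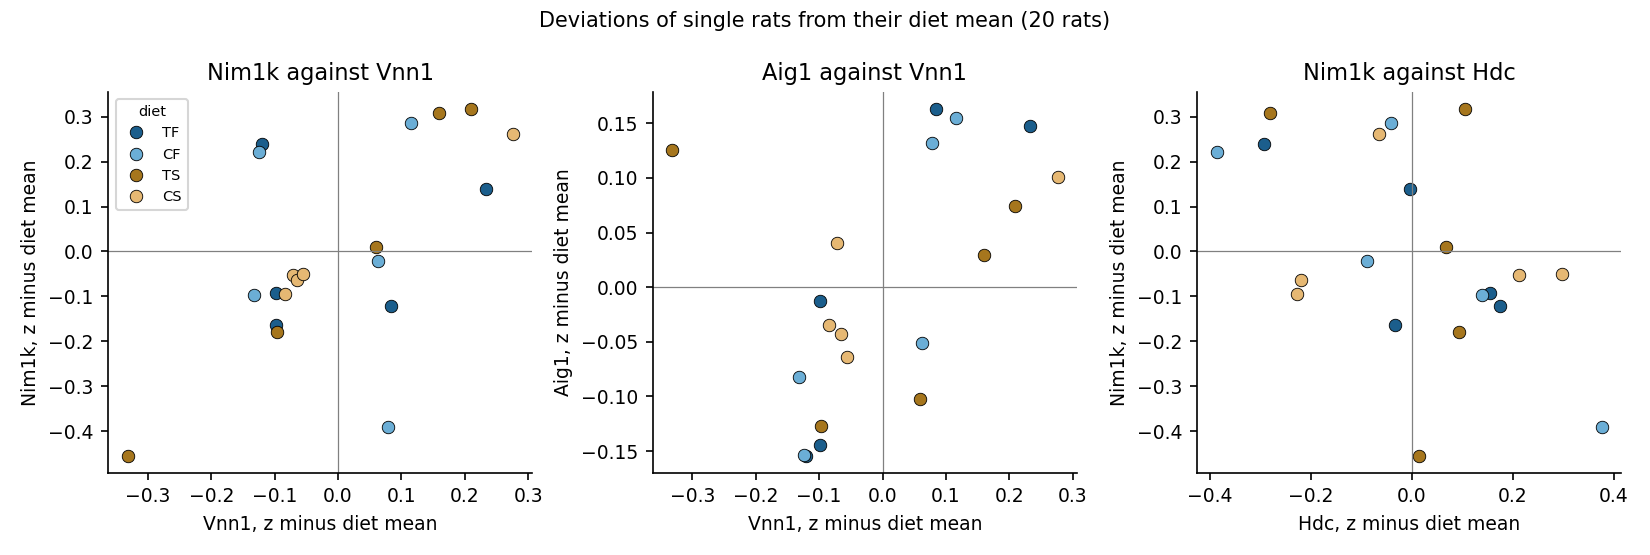
Each point is 1 of the 20 rats, coloured by diet, at its z score (log scale) minus the mean of its diet, for Nim1k against Vnn1, Aig1 against Vnn1 and Nim1k against Hdc. In the first panel TS-5 is alone at the lower left (-0.332 and -0.454), and in the third CF-6 is at the lower right (0.377 and -0.391).

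The beta-actin probe sets are a control of RNA quality. In 4 arrays, TF-3, CF-1, TS-1 and CS-1, 1 rat of each group, the 5′ one read 1.30 to 1.42, against 1.86 to 2.13 in the other 16. The 3′ one was also lower there, at 2.09 to 2.20 against 2.34 to 2.62. The 5′ probe set of GAPDH, another control, was not lower, at 2.76 to 2.87 against 2.63 to 2.84. Without these 4 arrays fish oil minus soybean oil was 0.91 for Hdc, 0.76 for Vnn1, 0.60 for Aig1 and 0.58 for Nim1k. These were as large as or close to the values with all rats. The interaction was -0.28 for Hdc and 0.14 for Aig1 without them. The defining hepatocyte genes were bright on every array, with all 7 measured of 8 above 0 and a mean of 3.01 to 3.29 over the rats. The median correlation of an array with the others was 0.938 to 0.958.

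The genes most like each member were ranked by Pearson r over the 20 rats. These correlations describe rats that share the diets, so any gene that moved with the oil scored high. For Hdc the 5 highest were Acot1 and Acot2, thioesterases that release fatty acids from coenzyme A (r = 0.93 and 0.91), Slc25a20, the mitochondrial carnitine carrier (0.89), Eci1, an isomerase of unsaturated fatty acid oxidation (0.89), and Cyp4a1, a fatty acid omega-hydroxylase (0.89). For Vnn1 they were Eci1 (0.96), Crat, carnitine acetyltransferase (0.94), Ech1, another isomerase (0.94), Pex11a, a factor of peroxisome division (0.94), and Hsdl2 (0.94). For Aig1 they were Ech1 and Acot2 (0.97 each), Eci1 (0.96), Cyp4a1 (0.95) and Acot1 (0.94). Acot1 had the widest split, with means of 1.74 on fish oil and -0.57 on soybean oil.

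None of the 5 genes highest for Nim1k was among those of the other members. Cidea, a lipid droplet protein, came first (r = 0.85), then Stard9, a kinesin (0.83), Colq, the collagen tail of acetylcholinesterase (0.82), Tmem14c (0.82) and Bbs2, part of the ciliary BBSome (0.81). Cidea averaged 0.661 on fish oil and 0.253 on soybean oil. Among the members, r over the 20 rats was 0.92 for Vnn1 and Aig1, 0.88 for Hdc and Aig1, 0.85 for Hdc and Vnn1, 0.83 for Vnn1 and Nim1k, 0.66 for Aig1 and Nim1k and 0.54 for Hdc and Nim1k. With the diet means removed, r with the first-named genes was 0.60 for Hdc with Acot1, 0.70 for Vnn1 with Eci1, 0.73 for Aig1 with Ech1 and 0.59 for Nim1k with Cidea. Those genes were picked for the highest r over the same 20 rats, which can raise these values, so they only describe the pairs.

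The genes around histamine gave no call. Of the 11 measured, 8 had a mean below 0, so a missing call says little of them. None of the 11 measured of 13 genes for histamine breakdown, transport and reception was called for the oil, at differences of -0.13 to 0.069 and a median of 0.025, where 0.302% of all genes were called and the median over all genes was -0.0018. Hnmt and Aoc1, the methyltransferase and the diamine oxidase that break histamine down, differed by -0.13 (SE 0.15) and 0.069 (SE 0.053), with limma adjusted p of 1.0 and 0.978. Maob, which acts after Hnmt, differed by 0.028 (SE 0.035), and the receptor Hrh1 by 0.047 (SE 0.045). Of the 10 measured of 12 genes that use or carry histidine, 0 were called (median -0.013), and Hal, the enzyme that sends histidine to glutamate, differed by -0.037 (SE 0.049). The other 8 decarboxylases and related proteins listed also had 0 calls (median 0.048, range -0.026 to 0.12). None of these 3 lists had a call for the protein source or the interaction.

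Mast cell and basophil markers were low throughout. Of 13 listed, 12 were measured, and 0 were called for the oil, the protein source or the interaction. Of those measured, 3 had a mean above 0 and 9 below it, so a missing call or rise says little of these markers. Their mean lay between -0.339 and -0.219 in the TF rats, -0.357 and -0.272 in CF, -0.304 and -0.192 in TS, and -0.319 and -0.201 in CS, so the fish oil rats were not above the soybean oil rats. The median difference between the oils was -0.033. Cpa3, the mast cell carboxypeptidase, differed by -0.16 (SE 0.055), Tpsab1, a tryptase, by -0.045 (SE 0.050), and Kit, the receptor of stem cell factor, by 0.037 (SE 0.057). The 7 measured Kupffer cell and macrophage markers of 10 had differences of -0.079 to -0.012 with 0 calls and rat means of 1.11 to 1.34 in TF, 1.17 to 1.23 in CF, 1.16 to 1.40 in TS and 1.11 to 1.35 in CS. Their part in the members' values was not tested, and the neutrophil, lymphocyte, endothelial, stellate and bile duct lists had 0 calls for the oil.

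Around Vnn1, 1 of the 18 measured of 19 genes of coenzyme A synthesis and breakdown was called higher on fish oil, where 0.281% of all genes were. It was Nudt7, a peroxisomal enzyme that splits coenzyme A upstream of the step of Vnn1. Nudt7 read 1.39, 1.44, 1.26, 1.29 and 1.30 in TF rats, 1.33, 1.33, 1.42, 1.5 and 1.36 in CF, 1.04, 1.09, 1.13, 1.11 and 1.08 in TS, and 1.26, 1.14, 1.15, 1.14 and 1.10 in CS. The fish oil rats were all above the soybean oil rats, though the lowest of them and CS-1 both rounded to 1.26. That order was seen in 0.134% of all genes. The difference was 0.24 (SE 0.031, limma adjusted p = 0.000542). The kinase Pank1, which starts coenzyme A synthesis, differed by 0.11 (SE 0.046, adjusted p = 0.853), Ppcs by 0.10 (SE 0.037, adjusted p = 0.704) and Nudt19, another coenzyme A hydrolase, by 0.026 (SE 0.038). The list's median was 0.025.

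Cysteamine, the other product of Vnn1, can be turned into hypotaurine and taurine. None of the 7 genes of that list was called for the oil (median 0.0063), with 0.0063 (SE 0.043) for Ado, the cysteamine dioxygenase, 0.066 (SE 0.034) for Cdo1 and 0.12 (SE 0.059, adjusted p = 0.908) for Csad. For the protein source 1 was called higher on tofu, where 0.521% of all genes were. It was Fmo1, a monooxygenase that turns hypotaurine into taurine among many other substrates, at 1.43 to 1.81 in TF rats, 0.701 to 1.14 in CF, 1.43 to 1.69 in TS and 0.709 to 1.12 in CS. All tofu rats were above all casein rats, an order whose share over all genes was not counted. The difference was 0.73 (SE 0.069, limma adjusted p = 1.3e-05).

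Of 10 listed hydrolases that act on branched fatty acid esters or related lipids, 8 were measured. Adtrp, a relative of Aig1 with the same kind of activity, differed by 0.14 between the oils (SE 0.031, limma adjusted p = 0.0780) and was not called. Pnpla3, a lipid droplet hydrolase, was called lower on fish oil, where 0.0211% of all genes were, and lower on tofu, where 0.401% were. It read -0.808 to -0.335 in TF rats, 0.900 to 1.61 in CF, -0.287 to 0.311 in TS and 1.76 to 2.21 in CS. The fish oil rats were below the soybean oil rats within each protein source, and the share of all genes with that order was not counted. The oil difference was -0.58 (SE 0.095, adjusted p = 0.00689) and the protein difference -1.93 (SE 0.095, adjusted p = 6.7e-10). Ces1d, a carboxylesterase, was higher on tofu by 0.34 (SE 0.046, adjusted p = 0.000887), and Pnpla2 and Lipe, the main lipases of stored fat, differed between the oils by 0.082 (SE 0.035) and 0.034 (SE 0.046). The oil call of Pnpla3 was lost in a fit with the rat number as a block (adjusted p = 0.0688) and without the 3 arrays least correlated with the others (adjusted p = 0.0724). The list had 2 oil calls in place of 1 without CS-1, or with every array at the same median and spread.

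No relative of Nim1k passed the test. Of 21 AMPK family kinases and members of the LKB1 complex, 19 were measured and 0 were called for the oil, the protein source or the interaction. Their oil differences ran from -0.041 to 0.097, with a median of 0.0049. Prkaa1 and Prkaa2, the catalytic subunits of AMPK, differed by 0.013 (SE 0.033) and -0.028 (SE 0.045), and Stk11, which is LKB1, the kinase that activates AMPK, by 0.029 (SE 0.068). Sik1 and Snrk, further kinases of the family, differed by -0.0080 (SE 0.033) and 0.0049 (SE 0.034).

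**Figure D5:**
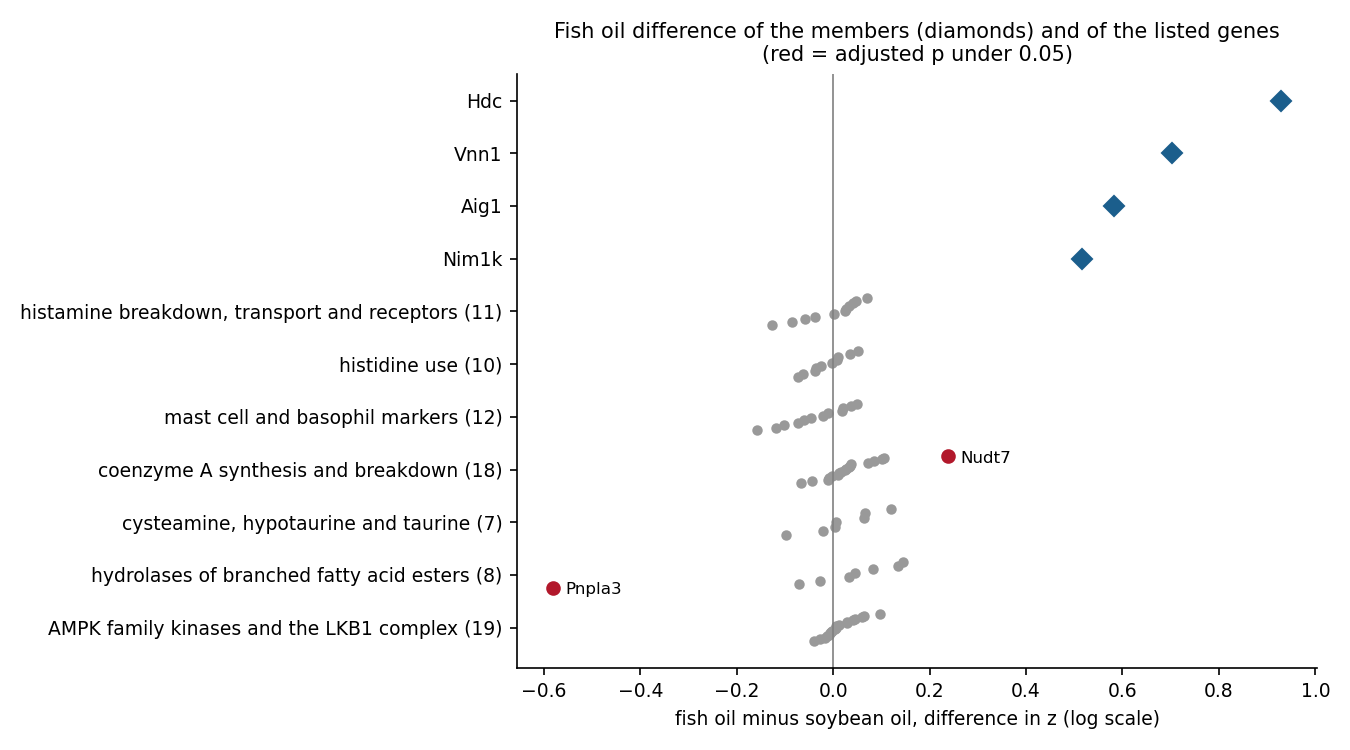
Each point is the difference in z (log scale), fish oil minus soybean oil, of 1 gene, with the 4 members as diamonds above 7 lists of related or marker genes, and the number of measured genes is in brackets. The members lie at 0.52 to 0.93, and of the listed genes only Nudt7 (0.24) and Pnpla3 (-0.58), in red, had an adjusted p under 0.05.

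Of 15 known PPAR alpha targets of rodent liver, 12 were measured, and they were listed with their behaviour in these data known. For the oil 4 were called higher, where 0.281% of all genes were: Acot1 (2.31, SE 0.22), Cyp4a1 (0.53, SE 0.053), Ehhadh, a bifunctional enzyme of peroxisomal oxidation (0.51, SE 0.063), and Cyp4a3, another omega-hydroxylase (0.40, SE 0.052), with limma adjusted p from 1.5e-05 to 0.000594. Over all 12 the median difference was 0.10, with a range of -0.016 to 2.31. Hdc, Vnn1, Aig1 and Nim1k differed by 0.93, 0.70, 0.58 and 0.52. They were chosen for their rise on fish oil, so setting them beside these targets only describes them. The other 8 were not called, among them Cpt1a, the carnitine palmitoyltransferase of the outer mitochondrial membrane, at 0.074 (SE 0.051), Pdk4, a kinase that holds back pyruvate oxidation, at 0.072 (SE 0.086), and the receptor's own gene Ppara at 0.0012 (SE 0.044).

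For the protein source, 4 of these 12 genes fell on tofu, where 0.401% of all genes did and the members had no call. They were Pdk4 (-0.55, SE 0.086), the hormone Fgf21 (-0.50, SE 0.083), the lipase inhibitor Angptl4 (-0.29, SE 0.056) and the lipid droplet coat protein Plin2 (-0.17, SE 0.032), with limma adjusted p of 0.00422, 0.00580, 0.0167 and 0.0183 in that order. Without the 4 arrays of low 5′ beta-actin the calls of Pdk4, Angptl4 and Plin2 were lost, and without the 3 least correlated arrays those of Fgf21, Angptl4 and Plin2. The rat number as a block also ended the calls of Angptl4 and Plin2, and an equal median and interquartile range that of Plin2. No listed gene was called in the interaction.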

How the data were processed

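Liver RNA of 20 rats was measured on Affymetrix Rat Genome arrays, 1 per rat and 5 per diet, so the replicates are separate animals. The deposited values are scores: the authors normalized each array with the SuperNORM service, which fits the array's signals to a lognormal distribution and gives z scores on a log scale. How background was treated is not given in the sources used here. Of 31099 probe sets, 57 were controls and were left out, as were those with fewer than 3 values in any group (63 values were missing), and 31039 entered the fit. Gene symbols from the array annotation were brought up to date by Entrez identifier, which changed or kept 20764 through a match and left 68 unmatched. The brightest probe set of a symbol stands for its gene, and probe sets with several symbols (436) or none (9778) are not named.

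The model held the 4 group means and no covariate, and was fitted by limma 3.58.1 (R 4.3.3) over every probe set, with Benjamini-Hochberg adjustment across all of them and a threshold of 0.05. It was checked on simulated data. The median standard error was 0.0533 for the oil and protein contrasts and 0.107 for the interaction. A fold is computed from the z difference with 0.2 as 1.41-fold. The members and lists were chosen with earlier results of these data known. Genes named are the members, listed genes called in a contrast, defining genes of a list without calls, and the 5 genes most correlated with each member. Promoter windows are from RefSeq (GRCr8). The alternatives changed the scaling (quantile, or an equal median and spread for every array), the probe sets kept (mean z above 0), the variance model (no moderation, or a trend with robust estimation), the summary of a gene (all its probe sets averaged), or the arrays and terms (the rat number as a block, array weights, the 4 arrays of low 5′ beta-actin as a block or left out, the 3 least correlated arrays left out, each rat left out in turn).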

Additional observations from a re-analysis of the deposited data

Results flagged for a closer look

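Of the 20 sets of 5 rats examined (5 probe sets in 4 diets), 3 had 1 rat far from the rest by Dixon's criterion at the 95% level, and chance flags about 1 in 20 such sets. For Hdc, TS-1 was the lowest TS rat at -0.299, with the next at -0.00438. For Vnn1, CS-1 was the highest CS rat at 1.18, with the next at 0.848. For Nim1k, CS-1 was again the highest CS rat at 0.746, with the next at 0.433. Both rats are among the 4 with low 5′ beta-actin, and the part of that in these values was not tested.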

How the results depend on the processing

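The fish oil differences of the 4 genes stayed positive in the 9 other settings tried and in the 20 fits that each left out 1 rat. The genes were chosen for this rise in the same rats, so its sign is no independent check. Leaving out 1 rat gave 0.88 to 0.98 for Hdc, 0.66 to 0.74 for Vnn1, 0.56 to 0.60 for Aig1 and 0.46 to 0.57 for Nim1k. The largest move was Aig1, at 0.30 with the mean of its 2 probe sets. No protein effect or interaction of a member was called in any setting. With 1 rat left out, the interaction of Hdc ran from -0.18 to 0.0092 (above 0 without CF-6) and the protein effect of Vnn1 from -0.064 to 0.0065 (above 0 without TS-5). The interaction ran from 0.072 to 0.21 for Vnn1 and from 0.090 to 0.28 for Nim1k (lowest without TS-5, highest without TS-2), and from 0.20 to 0.28 for Aig1. The protein effect ran from -0.13 (without CF-1) to -0.034 (without CF-6) for Hdc, from 0.074 (without CF-6) to 0.18 (without TS-5) for Nim1k, and from -0.15 to -0.11 for Aig1. The covariation of Vnn1 and Aig1 was 0.81 without TS-5 and TS-7, the rats of most extreme Vnn1 z score, that of Hdc and Vnn1 was -0.087 without CF-1 and CF-6 (a setting added after the data were seen), and that of Aig1 and Nim1k turned to 0.023 with Spearman's rho and 0.031 without the 4 arrays of low 5′ beta-actin. The cause was not tested.

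Over all probe sets, 60 were called for fish oil (55 higher, 5 lower) and 173 for tofu (93 higher, 80 lower). With the rat number as a replicate block the counts were 27 and 91, and without the 3 least correlated arrays 34 and 74. For tofu the count was 357 among bright probe sets only, 289 with a variance trend and robust estimation, 72 without the arrays of low 5′ beta-actin, and 114 to 164 with 1 rat left out (114 without CS-2). For fish oil it was 46 to 60 with 1 rat left out. With the arrays of low 5′ beta-actin as a block the counts were 67 for fish oil and 215 for tofu. Why the counts differed between settings was not tested. Rats with the same number in the labels deviated together slightly more than rats of different numbers. Over 22 same-number pairs the median correlation of deviations was 0.0371 (-0.0982 to 0.127), against -0.00804 for pairs of different numbers. Of the same-number pairs, 1 was over 0.1, and 6 of 19 rats correlated best with a rat of their own number. The main fit did not take the numbers as pairs, and the block gave no member a protein or interaction call.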

Other observations

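The 2 nearest measured genes on each side of each member were looked up after the members' values had been seen, in the gene order of the RefSeq annotation. Of these 16 genes, 1 was called for the oil, where 0.302% of all genes were. It was Slc27a2, which lies next to Hdc and encodes a very long chain acyl-CoA synthetase and fatty acid transporter. It read 2.89, 2.80, 2.74, 2.84 and 2.78 in TF rats, 2.78, 2.87, 2.87, 2.87 and 2.69 in CF, 2.68, 2.69, 2.67, 2.65 and 2.66 in TS, and 2.67, 2.68, 2.65, 2.54 and 2.68 in CS. Every rat on fish oil was above every rat on soybean oil, though CF-7 and TS-2 both rounded to 2.69. Of all genes, 0.134% had that order. The difference was 0.16 (SE 0.030, limma adjusted p = 0.0266), and the adjusted p ran from 0.00486 to 0.259 over the alternatives, with the call lost in the fit with the rat number as a block (0.259), without the arrays of low 5′ beta-actin (0.160), without the 3 least correlated arrays (0.0724), and without any 1 of CF-2, CF-5, CF-6, CS-5, TF-3, TF-6, TS-4, TS-5 and TS-7. On the other side of Hdc, Gabpb1 differed by 0.020 (SE 0.051). Pex3, a factor of peroxisome assembly next to Aig1, differed by 0.070 (SE 0.034, adjusted p = 0.899).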
